A study of Mus musculus with 20 samples.

Results

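Serpins are a family of proteins that share 1 fold, and most of them trap proteases. The family was read here from the livers of female C57BL/6 wild-type mice (C57BL/6J in the study's methods), 8 weeks old, that received corticosterone (CORT) or vehicle in the drinking water for 5 weeks. The members were all rows of the liver count table whose gene symbol is Serpin, a clade letter from a to i, a number and any further letters. This gave 64 of 48440 rows, and 5 rows named as serpin pseudogenes were not members. The 64 rows carry 63 symbols, because Serpinb10 is listed under 2 identifiers. Clade A had 25 rows and clade B 28. Clades C, D, G and H had 1 each, clades F and I had 2 each and clade E had 3.

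The 4 groups of 5 livers were compared with each other, and all mice also received an antibody by intraperitoneal injection. Isotype + Vehicle received an isotype control antibody and vehicle. Isotype + CORT received the same control antibody and CORT. αACBP + Vehicle received a monoclonal antibody that neutralizes acyl coenzyme A binding protein (ACBP, also called DBI) and vehicle. αACBP + CORT received that antibody and CORT. RNA came from whole frozen liver, so that a lower level can come from fewer cells of a type or from less RNA per cell, and these cannot be told apart. Protein levels and inhibitor activity in plasma were not part of these data.

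A serpin presents an exposed reactive loop to a protease. The protease cuts the loop, the serpin folds the cut loop into its own body, and the protease is held in an inactive complex. The liver secretes the serpins of blood plasma, among them α1-antitrypsin, antithrombin, α2-antiplasmin and C1 inhibitor. Some members have lost the inhibitory function. Corticosteroid-binding globulin (Serpina6) and thyroxine-binding globulin (Serpina7) carry hormones, and Serpinh1 is a collagen chaperone of the endoplasmic reticulum. Corticosteroid-binding globulin binds most of the circulating glucocorticoid, and CORT is the main glucocorticoid of the mouse. Neutrophil elastase cuts its loop, which lowers its affinity for the hormone.

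The reactive loops are shown because they are where the mouse copies of α1-antitrypsin part, and because the loop decides which protease is trapped. Each window is the coding strand, 5′ to 3′, of a stretch of the last coding exon. The lower-case bases at the start are the 9 codons of the loop's hinge, those at the end are the 5 codons after the loop, and the capitals are the loop between them, read from the GRCm39 genome.
Serpina1a: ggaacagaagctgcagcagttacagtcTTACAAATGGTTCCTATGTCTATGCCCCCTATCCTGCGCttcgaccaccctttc
Serpina1b: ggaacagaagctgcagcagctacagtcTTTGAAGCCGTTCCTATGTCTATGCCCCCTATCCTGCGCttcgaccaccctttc
Serpina1c: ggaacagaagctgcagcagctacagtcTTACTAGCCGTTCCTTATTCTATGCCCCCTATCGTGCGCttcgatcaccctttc
Serpina1d: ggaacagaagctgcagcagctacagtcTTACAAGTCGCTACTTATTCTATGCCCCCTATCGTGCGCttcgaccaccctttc
Serpina1e: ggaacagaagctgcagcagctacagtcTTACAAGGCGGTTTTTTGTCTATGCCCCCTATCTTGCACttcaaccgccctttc
Serpina3k: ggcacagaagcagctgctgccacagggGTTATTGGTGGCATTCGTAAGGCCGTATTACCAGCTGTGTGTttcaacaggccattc
Serpina3m: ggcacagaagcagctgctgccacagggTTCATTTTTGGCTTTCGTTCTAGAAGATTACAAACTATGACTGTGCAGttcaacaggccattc
Serpina3n: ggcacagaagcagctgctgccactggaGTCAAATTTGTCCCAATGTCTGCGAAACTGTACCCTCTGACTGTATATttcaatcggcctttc
Serpina6: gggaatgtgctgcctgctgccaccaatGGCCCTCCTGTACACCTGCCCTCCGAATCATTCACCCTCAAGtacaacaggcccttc

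Over the whole coding sequence the 5 expressed α1-antitrypsin copies were 96.3% to 98.5% identical in pairs, whereas over the 39 bases in capitals they were 76.9% to 89.7% identical. Serpina1c and Serpina1d had the most similar loops, and Serpina1a and Serpina1c the most similar coding sequences. Serpina3k and Serpina3m started from the same hinge and had loops of 42 and 48 bases. The windows lie on chromosome 12. That of Serpina6 is chr12:103613174-103613257 on the minus strand, in exon 5 of 5. That of Serpina3k is chr12:104311528-104311611 on the plus strand, in exon 4 of 4. The gene Serpina6 itself (ENSMUSG00000060807.7) spans chr12:103611821-103623752, and Serpina3k (ENSMUSG00000058207.6) spans chr12:104303391-104314397.

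The similarity of the copies bears on the counts. A word of 100 bases from a transcript of Serpina1c also occurred in a transcript of another gene for 34.5% of its words, against 19.97% for Serpina1a, 17.7% for Serpina1d, 8.94% for Serpina1b and 7.29% for Serpina1e. The share was 1.46% for Serpina3k and 2.23% for Serpina3m, which overlap on the same strand, and 29.6% for Serpina3g. No word of Serpina6, Serpinc1, Serpinf1, Serpinf2 or Serping1 was shared. All words of Serpina3h, annotated as a transcribed pseudogene, were shared. The values of single Serpina1 copies, Serpina3g and Serpina3h are therefore uncertain as to which copy the reads came from. Serpinc1 lies opposite Zbtb37 over 34.4% of its exonic bases, Serpina10 opposite Ppp4r4 over 30.8% and Serpina1c opposite B430119L08Rik over 21.2%, and the strand setting of the counting is not given in the sources used here.

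Counts on genes ranged from 14934926 to 20299999 per liver, and the serpins took 1.25% to 3.00% of them (median 2.11%). Levels are given as CPM, the counts scaled to a common library size by trimmed mean of M-values (TMM). A count of 3 corresponded to 0.148 to 0.201 CPM, which was taken as the floor and covers counting error only. The livers expressed albumin at 25084 to 111118 CPM, and 9 of 10 hepatocyte marker genes passed the filter on low counts. Fkbp5, a gene switched on by the glucocorticoid receptor, stood at 26.1 to 51.1 CPM in Isotype + Vehicle and at 67.6 to 177 CPM in Isotype + CORT. Replicate 3 of Isotype + CORT gave the lowest of the latter values. It also stood at 42.8 CPM for Lcn2, a glucocorticoid-responsive acute-phase gene that reached 301 to 547 CPM in the other livers of its group. Lcn2 also reached 292 CPM in αACBP + Vehicle, without CORT. Of 15 glucocorticoid targets tested, 2 (Fkbp5 and Lcn2) passed both limits given below with CORT under isotype (median log2 fold change 0.167). Under αACBP 0 passed (median −0.112), and Fkbp5 overlapped (36.8 to 86.7 CPM with vehicle, 55.0 to 100 CPM with CORT). For αACBP against isotype under vehicle, without CORT, Ddit4, Lcn2, Mt1 and Mt2 passed, 3 of them higher and 1 lower (median 0.523). The targets of this list are thus no general measure of the CORT response. Whether replicate 3 of Isotype + CORT responded less to CORT was not tested. Replicate 5 of αACBP + Vehicle had the lowest albumin of all 20 livers. For the main results that rest on either liver, the value without it is also given.

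Of the 64 members, 32 passed the filter and were tested, 9 had counts too low for the test (at most 54 in any liver), and 23 had no count in any liver. A mean of at least 100 CPM was reached by 15 members. Clade B serpins act inside cells, mostly in skin, reproductive tissue and leukocytes. Of their 28 rows 19 had no count in any liver, among them Serpinb2, Serpinb3a and Serpinb5, and only 5 were tested. The untested members with some counts included Serpina5, the protein C inhibitor, with a mean of 0.0565 CPM, as well as Serpina9 at 0.221 CPM and Serpine3 at 0.303 CPM. Serpina1f, Serpina16, Serpina3j and Serpini2 had no count. A count of 0 allows up to the floor given above.

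Compared per transcript length, as length-scaled transcript abundance (TPM, mean ± SD over 20 livers), 4 of the 5 expressed α1-antitrypsin copies were the most abundant serpins over all livers. Serpina1b stood at 4736 ± 717 TPM, Serpina1c at 3647 ± 632 TPM, Serpina1a at 2343 ± 275 TPM and Serpina1d at 1832 ± 448 TPM. Serpina3k followed at 1801 ± 1085 TPM, a level that was not separated from that of Serpina1d or Serpina1a by more than its spread and that differed between groups. Its group mean was 865 TPM in αACBP + Vehicle, below Serpina1d at 1431.5 TPM, and 2870 TPM in Isotype + CORT, above Serpina1a at 2170.4 TPM. Antithrombin (Serpinc1) came next with 794 ± 120 TPM, then α2-antiplasmin (Serpinf2) with 672 ± 149 TPM and C1 inhibitor (Serping1) with 563 ± 82.3 TPM, and the spreads of neighbours in this order overlapped. In αACBP + Vehicle the order of Serpinf2 (808.5 TPM) and Serpinc1 (666 TPM) was the opposite. The fifth α1-antitrypsin copy, Serpina1e, stood at 171 ± 184 TPM. Pigment epithelium-derived factor (Serpinf1, 306 ± 69.5 TPM), heparin cofactor II (Serpind1, 257 ± 44.2 TPM) and Serpina6 (229 ± 116 TPM) formed the next step and overlapped in their spread.

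**Figure D1:**
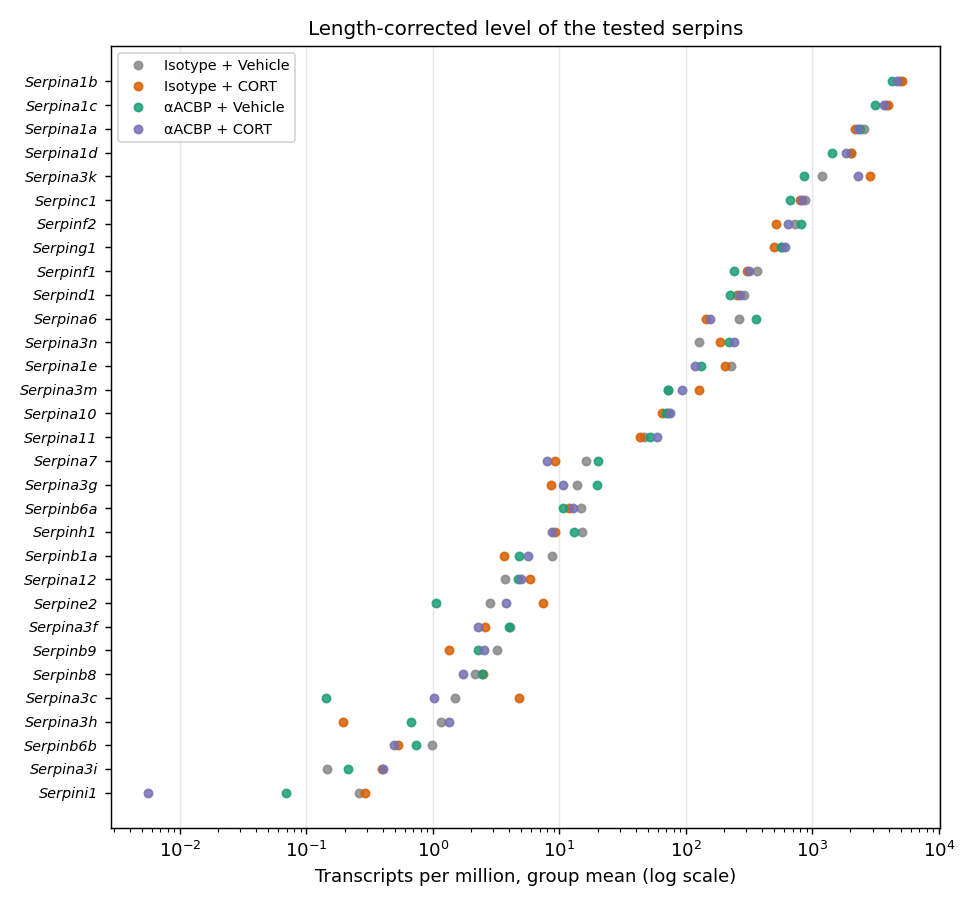
TPM (log scale) of the tested serpins, 1 of them left out, with 1 point for the mean of each group of 5 livers. Serpina1a to Serpina1d and Serpina3k stand at the top with 1801 to 4736 TPM over all livers, and the points of the 4 groups lie close together for most abundant members, with Serpina3k and Serpina6 more spread.

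Serpina6 was lower with CORT than with vehicle under either antibody. Isotype + Vehicle livers held 427.5, 463.5, 423, 368 and 443 CPM, and Isotype + CORT livers 203, 120, 446, 245 and 201 CPM. αACBP + Vehicle livers held 383, 338, 682, 505 and 610.4 CPM, and αACBP + CORT livers 269, 238, 211, 254 and 303 CPM. All 5 αACBP + CORT livers lay below every vehicle liver of either antibody. In Isotype + CORT, 4 of 5 livers did so, and replicate 3 lay among the vehicle livers.

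**Figure D2:**
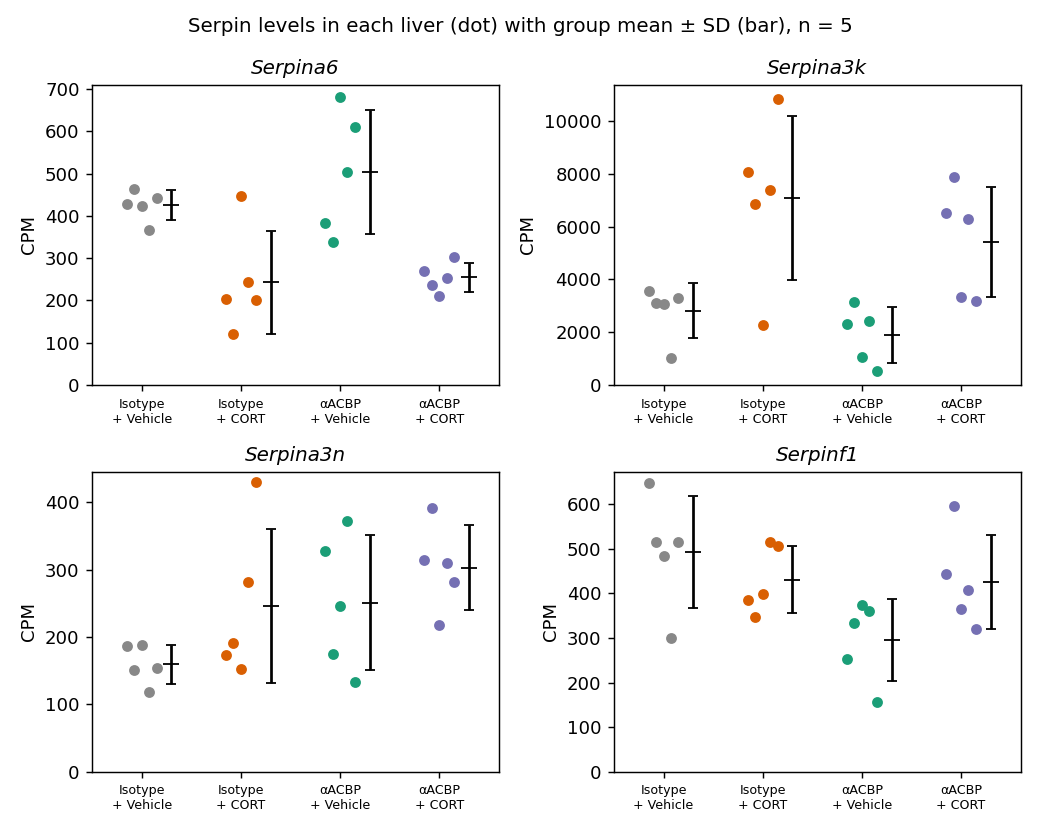
CPM of Serpina6, Serpina3k, Serpina3n and Serpinf1 in each of the 20 livers (dots) with the mean ± SD of each group (bars, n = 5). Serpina6 is lower and Serpina3k higher in most CORT livers; replicate 3 of Isotype + CORT (Serpina6 446 CPM, Serpina3k 2276 CPM) lies with the vehicle livers, and Serpinf1 is lowest in αACBP + Vehicle.

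Under isotype the mean of Serpina6 went from 425 ± 35.6 CPM (SD, n = 5) with vehicle to 243 ± 122 CPM with CORT. The log2 fold change was −0.81 (SE 0.24), and it did not pass the test over all genes (edgeR quasi-likelihood, adjusted p = 0.058). Without replicate 3 of Isotype + CORT it was −1.15 (adjusted p = 0.0017). Under αACBP the mean went from 503.5 ± 146 to 255 ± 34.5 CPM, a log2 fold change of −0.98 (SE 0.24, adjusted p = 0.0635). In two-sided exact permutation tests of the CPM of Serpina6 alone, the drop under isotype had p = 0.0397 (0.0661 adjusted over 5 comparisons). The drop under αACBP had an exact p = 0.00794, the smallest that 252 splits allow (0.0198 adjusted over 5). αACBP + CORT against Isotype + Vehicle gave a log2 fold change of −0.74 (SE 0.24, edgeR adjusted p = 0.288), with the same exact permutation p as under αACBP.

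Taking both antibodies in 1 contrast, a comparison added after these values had been seen, the log2 fold change of Serpina6 with CORT was −0.89 (SE 0.17, interval −1.22 to −0.56, edgeR adjusted p = 0.00304), that is, 0.538 times the vehicle level. It passed the adjusted p limit and not the fold limit of 1 on the log2 scale. The mean fell by 215 CPM, with p = 0.00022 in a two-sided exact permutation test within each antibody. Leaving out each of the 20 livers in turn gave −1.06 to −0.81, with adjusted p from 6.13e-05 to 0.00874.

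No antibody difference in Serpina6 passed the test. With CORT, αACBP against isotype gave a log2 fold change of 0.07 (SE 0.24, interval −0.39 to 0.53, edgeR adjusted p = 0.966). With vehicle it gave 0.24 (SE 0.24, interval −0.22 to 0.71, adjusted p = 0.636). The exact permutation p-values were 0.841 and 0.302. The test of whether the CORT effect differed between antibodies gave −0.18 (SE 0.33, interval −0.83 to 0.48, adjusted p = 0.922), and the interval covers differences in either direction.

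Serpina7, the other hormone carrier, which lies on the X chromosome, was low and variable. Its mean was 21.2 ± 3.50 CPM in Isotype + Vehicle, 12.9 ± 11.6 in Isotype + CORT, 23.1 ± 18.9 in αACBP + Vehicle and 10.6 ± 5.47 in αACBP + CORT (SD, n = 5). The groups overlapped in each comparison, and the adjusted p-values of the 6 comparisons were 0.722 or higher except under αACBP, where CORT against vehicle gave 0.535.

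The steroid-handling genes around the carriers were read from a list of 15, of which 14 were tested. Over both antibodies, Hsd11b1, the enzyme that regenerates active glucocorticoid, rose by 0.58 on the log2 scale (SE 0.13, adjusted p = 0.00987). Gc, the vitamin D-binding protein, rose by 0.53 (SE 0.15, adjusted p = 0.033). Nr3c1, the glucocorticoid receptor, stood at 40.4 to 48.9 CPM in the means of the 4 groups, with a log2 difference of 0.10 (SE 0.12, adjusted p = 0.738). Akr1d1, a reductase that inactivates steroids, fell with αACBP under vehicle (−0.70, SE 0.18, adjusted p = 0.0274) and under CORT (−0.90, SE 0.18, adjusted p = 0.0117). Cebpb rose by 1.04 with αACBP under vehicle (SE 0.28, adjusted p = 0.0324).

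Serpina3k was the member of largest CORT difference among the abundant serpins. It belongs to the α1-antichymotrypsin group, a gene that is single in humans and multiplied in the mouse. Vehicle livers held 3576, 3125, 3068, 1018 and 3312 CPM under isotype and 2310.1, 3156, 1054, 2429.7 and 540 CPM under αACBP. With CORT they held 8059, 6856, 2276, 7381 and 10847 CPM under isotype and 6496.5, 7857, 3324, 6297 and 3168 CPM under αACBP. The αACBP groups did not overlap, but only narrowly: the highest vehicle liver held 3156 CPM and the lowest CORT liver 3168 CPM. The share of all genes without such overlap is not given here. In the isotype groups replicate 3 with CORT lay among the vehicle livers.

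The log2 fold change of Serpina3k with CORT was 1.33 under isotype (SE 0.46, edgeR adjusted p = 0.131) and 1.52 under αACBP (SE 0.46, adjusted p = 0.156), neither past the test. Without replicate 3 of Isotype + CORT the former was 1.55 (adjusted p = 0.0441), the 1 of 20 fits without 1 liver that passed the adjusted p under isotype (1.11 to 1.55). Under αACBP the 20 fits without 1 liver gave 1.27 to 1.77, with adjusted p from 0.091 to 0.422. Over both antibodies it was 1.42 (SE 0.33, interval 0.78 to 2.06, adjusted p = 0.0194), and Serpina3k was the 1 member past both limits in that added contrast. It kept that call without each of the 20 livers (1.29 to 1.54). αACBP against isotype gave −0.57 with vehicle (SE 0.45, adjusted p = 0.543) and −0.38 with CORT (SE 0.45, adjusted p = 0.842). The interaction was 0.19 (SE 0.64, adjusted p = 0.97).

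Other copies of the cluster showed smaller or less steady values. Serpina3n, an acute-phase serpin, stood at 160 ± 28.7 CPM in Isotype + Vehicle, 245 ± 114 in Isotype + CORT, 251 ± 100 in αACBP + Vehicle and 303 ± 63.1 in αACBP + CORT. Between the first and the last of these the livers did not overlap (119 to 187 against 217 to 392 CPM). The log2 fold change of 0.92 (SE 0.27) still failed the adjustment (edgeR adjusted p = 0.215). Serpina3m stood at 642 CPM in replicate 5 of Isotype + CORT, against 115 to 272 CPM in the other 4, and its log2 fold change under isotype was 0.89 (SE 0.39, adjusted p = 0.263). Serpina3g stood at 10.2 to 20.2 CPM in the group means, with a log2 fold change of −0.69 with CORT over both antibodies (SE 0.25, adjusted p = 0.119). The scarcer Serpina3f, Serpina3h and Serpina3i had means of 3.88, 0.56 and 0.361 CPM over all livers. As a sum, the cluster reached 3147 ± 1082 CPM in Isotype + Vehicle and 7618 ± 3362 CPM in Isotype + CORT, and Serpina3k made up most of it.

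Serpina3c, a scarce copy, was the 1 member past both limits for αACBP over both drinks and was singled out after its values were seen. Its fold changes were not the largest of the family with αACBP. It stood at 13.1, 1.04, 2.18, 0 and 2.76 CPM in Isotype + Vehicle and at 23.2, 15.7, 3.10, 9.58 and 9.28 CPM in Isotype + CORT. In αACBP + Vehicle it stood at 0, 0.86, 0.66, 0.17 and 0 CPM, and in αACBP + CORT at 3.83, 2.06, 3.33, 2.54 and 0.54 CPM. Over both drinks the log2 fold change of αACBP against isotype was −2.90 (SE 0.73, edgeR adjusted p = 0.023), in a contrast added after the data had been seen. Without replicate 1 of Isotype + Vehicle, which held the 13.1 CPM, it was −2.23 (adjusted p = 0.052). limma voom gave −2.50 (adjusted p = 0.0888). Within vehicle the adjusted p was 0.0667 and within CORT 0.324.

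Acute-phase genes, which the liver raises in inflammation, were read in the same livers from a list of 20, all tested. Saa1, Saa2 and Saa3 rose past both limits with αACBP under either drink. Lcn2 did so with αACBP under vehicle and Orm2 with αACBP under CORT. Saa1 stood at 38.2 CPM in the mean of Isotype + Vehicle and at 658 CPM in that of αACBP + Vehicle (log2 fold change 4.10, SE 0.73, adjusted p = 0.0075). With CORT under isotype, Lcn2 rose by 4.07 (SE 0.69, adjusted p = 0.00358). With CORT over both antibodies Lcn2 (2.61, SE 0.46, adjusted p = 0.00483) and Orm3 (1.75, SE 0.39, adjusted p = 0.0194) passed both limits upward, and Hp (0.64, SE 0.19, adjusted p = 0.047) passed the adjusted p alone.

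The 5 expressed α1-antitrypsin copies were given also as a sum, since reads can fit more than 1 copy. Their loops differ, and which protease each copy traps was not part of these data, so the sum is not the level of 1 activity. The sum was 11679 ± 1694 CPM in Isotype + Vehicle, 12120 ± 2770 in Isotype + CORT, 8838 ± 2143 in αACBP + Vehicle and 10921 ± 1646 in αACBP + CORT (SD, n = 5). In αACBP + Vehicle the livers ranged from 5455 to 10464 CPM and in Isotype + Vehicle from 8705 to 12810 CPM, so that the groups overlapped. Without replicate 5, the αACBP + Vehicle mean was 9684 ± 1163 CPM (n = 4). Serpina1b held 37.1% to 38.99% of the sum in the group means, Serpina1c 24.9% to 26.3%, Serpina1a 17.3% to 22.4% and Serpina1d 13.6% to 16.1%.

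Serpina1e was the exception in steadiness. It ranged from 11.5 to 620 CPM across the 20 livers, with a coefficient of variation of 111%, against 16.2% for Serpina1a and 31.5% for Serpina1d. Within Isotype + CORT alone the livers held 620, 93.3, 11.5, 27.6 and 66.6 CPM. Serpina1d was 0.63 lower on the log2 scale with αACBP under vehicle (SE 0.24, edgeR adjusted p = 0.12) and Serpina1c 0.44 lower (SE 0.20, adjusted p = 0.222), neither past the test. Serpina1f, a copy known from the epididymis, had no count.

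**Figure D3:**
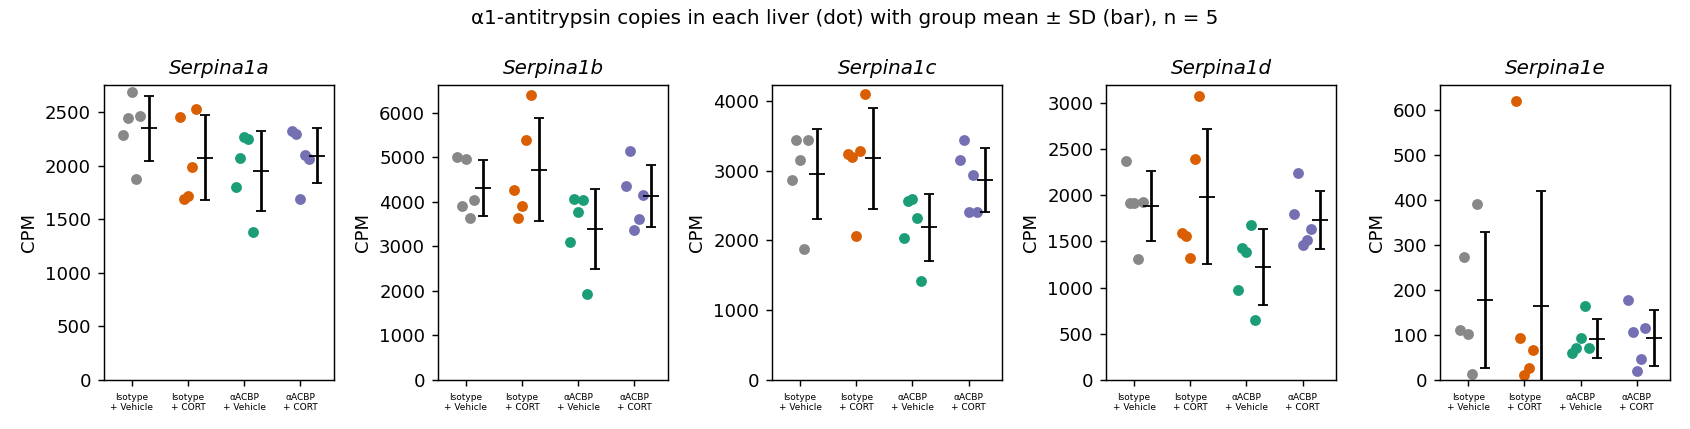
CPM of the 5 expressed α1-antitrypsin copies in each of the 20 livers (dots) with the mean ± SD of each group (bars, n = 5; a bar that would pass below 0 is cut there). Replicate 5 of αACBP + Vehicle is the lowest liver for Serpina1a to Serpina1d, and Serpina1e spreads from 11.5 to 620 CPM.

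Among the serpins of clotting, fibrinolysis and complement, antithrombin (Serpinc1), which inhibits thrombin and factor Xa, stood at 2451 ± 406 CPM in Isotype + Vehicle and 1689 ± 392 CPM in αACBP + Vehicle. The log2 fold change was −0.54 (SE 0.19, edgeR adjusted p = 0.0966). Heparin cofactor II (Serpind1), a further thrombin inhibitor, went from 330 ± 53.8 to 233 ± 71.4 CPM (−0.50, SE 0.20, adjusted p = 0.139). α2-antiplasmin (Serpinf2), which inhibits plasmin, went from 933 ± 136 CPM with vehicle to 699.5 ± 71.0 CPM with CORT under isotype (−0.42, SE 0.16, adjusted p = 0.159). None of these 3 passed the test. Without replicate 5 of αACBP + Vehicle the values of Serpinc1 and Serpind1 were −0.41 and −0.37.

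C1 inhibitor (Serping1), which holds the first complement proteases and kallikrein, kept between 515 ± 82.5 and 625.4 ± 143.5 CPM in the group means. Its log2 fold changes within the 6 comparisons lay between −0.19 and 0.45 (lowest adjusted p = 0.557). Serpina10, the protein Z-dependent inhibitor of factor Xa, kept between 140 ± 33.3 and 166 ± 32.6 CPM, with a lowest adjusted p of 0.676. Serpina12, known as vaspin, stood at 7.59 to 12.5 CPM in the group means, with a lowest adjusted p of 0.526.

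Serpine2, protease nexin 1, had a mean of 4.76 CPM and a log2 fold change of 1.92 with CORT under αACBP (SE 0.91, edgeR adjusted p = 0.389).

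Of 36 proteases and partners that these serpins meet, 31 were tested. With CORT under isotype, C1s1 (a C1 inhibitor target) and Lrp1 (the receptor that clears serpin complexes) rose by 0.62 (SE 0.16) and 0.59 (SE 0.16) on the log2 scale, both with adjusted p = 0.0344. Cathepsin S (Ctss) fell by 1.41 (SE 0.36, adjusted p = 0.0312). With αACBP under vehicle, F7 (0.64, SE 0.15, adjusted p = 0.0152), Hgfac (0.60, SE 0.16, adjusted p = 0.0314) and Lrp1 (0.75, SE 0.16, adjusted p = 0.00788) rose and Ctsl fell by 0.99 (SE 0.24, adjusted p = 0.0194). Of 29 plasma protease inhibitors outside the family, 24 were tested. With αACBP under vehicle Tfpi2 fell by 0.83 (SE 0.15, adjusted p = 0.00366) and Mug1 by 0.84 (SE 0.25, adjusted p = 0.0469).

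Serpinf1, pigment epithelium-derived factor, an anti-angiogenic serpin without inhibitory activity, was the 1 member past the adjusted p limit in a comparison within the 4 groups. Isotype + Vehicle livers held 648, 514, 484, 299 and 515 CPM, and αACBP + Vehicle livers 254, 333, 373, 361 and 156 CPM. The ranges overlapped through replicate 4 of Isotype + Vehicle. The log2 fold change was −0.74 (SE 0.22, edgeR adjusted p = 0.0488), short of the fold limit. Leaving out single livers took it past 0.05 in 13 of 20 cases, with values from −0.87 to −0.58. Without replicate 5 of αACBP + Vehicle it was −0.58 (adjusted p = 0.112). The summed level of the hepatocyte marker list ranged from 42495 to 99764 CPM in αACBP + Vehicle and from 72877 to 129879 CPM in Isotype + Vehicle, and its part in this result was not tested. Serpinh1, the collagen chaperone, was 0.62 lower with CORT under isotype (SE 0.27, adjusted p = 0.237). Of 8 stellate cell and fibroblast markers, 3 fell with αACBP under vehicle at an adjusted p up to 0.05 and 1, Col3a1, with CORT under isotype, where their summed level was 178 to 236 CPM against 194 to 343 CPM. Their part in the Serpinh1 value was not tested. Serpina11 stood at a mean of 69.2 CPM, with a log2 fold change of 0.41 for αACBP under CORT (SE 0.18, adjusted p = 0.322).

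The clade B members that were tested are those of leukocytes and many other cells. Serpinb6a stood at 26.1 ± 4.92 CPM in Isotype + Vehicle and 16.9 ± 2.13 CPM in αACBP + Vehicle (−0.63, SE 0.23, edgeR adjusted p = 0.0963). Serpinb1a, an inhibitor of neutrophil proteases, stood at 9.39 ± 3.50 CPM in Isotype + Vehicle and 3.91 ± 4.54 CPM in Isotype + CORT (−1.26, SE 0.60, adjusted p = 0.316). Replicate 3 of Isotype + CORT held 11.5 CPM against 0.322 to 4.498 CPM in the others, and without it the log2 fold change was −2.23 (SE 0.56, adjusted p = 0.0228). Serpinb9, the granzyme B inhibitor, went from 6.00 ± 1.37 to 2.64 ± 1.73 CPM between the same groups (−1.18, SE 0.60, adjusted p = 0.352). Serpinb8 and Serpinb6b had means of 5.42 and 0.836 CPM over all livers. With CORT under isotype 5 of 8 macrophage and Kupffer cell markers fell, and their summed level was 328 to 637 CPM in Isotype + Vehicle and 122 to 361 CPM in Isotype + CORT. Of 7 dendritic cell markers 1, H2-Ab1, fell, and their summed level was 54.3 to 76.8 CPM and 11.3 to 32.2 CPM. Of 8 neutrophil markers 3 were tested and 1, Csf3r, fell, with sums of 12.2 to 22.2 CPM and 6.65 to 13.3 CPM. Of 12 T and NK cell markers 10 were tested, with sums of 13.3 to 21.6 CPM and 2.75 to 10.5 CPM. Of 7 B and plasma cell markers 1, Ighm, fell, with sums of 46.7 to 69.4 CPM and 5.67 to 30.7 CPM. Their part in the clade B values was not tested.

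Counted over the family, 0 of 32 members passed both limits (adjusted p up to 0.05 and a log2 fold change of at least 1 in size, edgeR) in any of the 6 comparisons. The share of all 16071 tested genes past those limits was 1.94% for CORT under isotype, 0.597% for αACBP under CORT, 0.212% for CORT under αACBP, 1.3% for αACBP under vehicle, 0.0684% for αACBP + CORT against Isotype + Vehicle and 0.143% for the interaction. With shares this low, a count of 0 in 32 is near the background. Without replicate 3 of Isotype + CORT, 3 members passed with CORT under isotype, namely Serpina3k, Serpina6 and Serpinb1a. DESeq2 passed Serpina3k with CORT under isotype, Serpina3k and Serpina6 with CORT under αACBP, and Serpina3c with αACBP under vehicle. limma voom passed Serpina3k with CORT under αACBP. Neither passed a member in the other 3 comparisons. The shares of all genes past the limits in these other fits are not given here. Their counts of members therefore cannot be set against a background.

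At an unadjusted p under 0.05, 8 of 32 members stood out with CORT under isotype (25% against 15.6% of all genes) and 4 with αACBP under CORT (against 12.5%). The count was 8 with CORT under αACBP (against 12.7%), 8 with αACBP under vehicle (against 20.6%), 4 for αACBP + CORT against Isotype + Vehicle (against 7.59%) and 3 for the interaction (against 10.6%). At an adjusted p up to 0.05 and any fold, the 1 member with αACBP under vehicle compares with 5.14% of all genes. In the added contrasts, 1 member passed both limits with CORT over both antibodies (1.23% of all genes) and 2 passed the adjusted p (4.23%), with 9 at an unadjusted p under 0.05 (18.3%). For αACBP over both drinks, Serpina3c alone passed both limits (0.541% of all genes) and the adjusted p (7.62%), with 5 at an unadjusted p under 0.05 (22.4%).

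**Figure D4:**
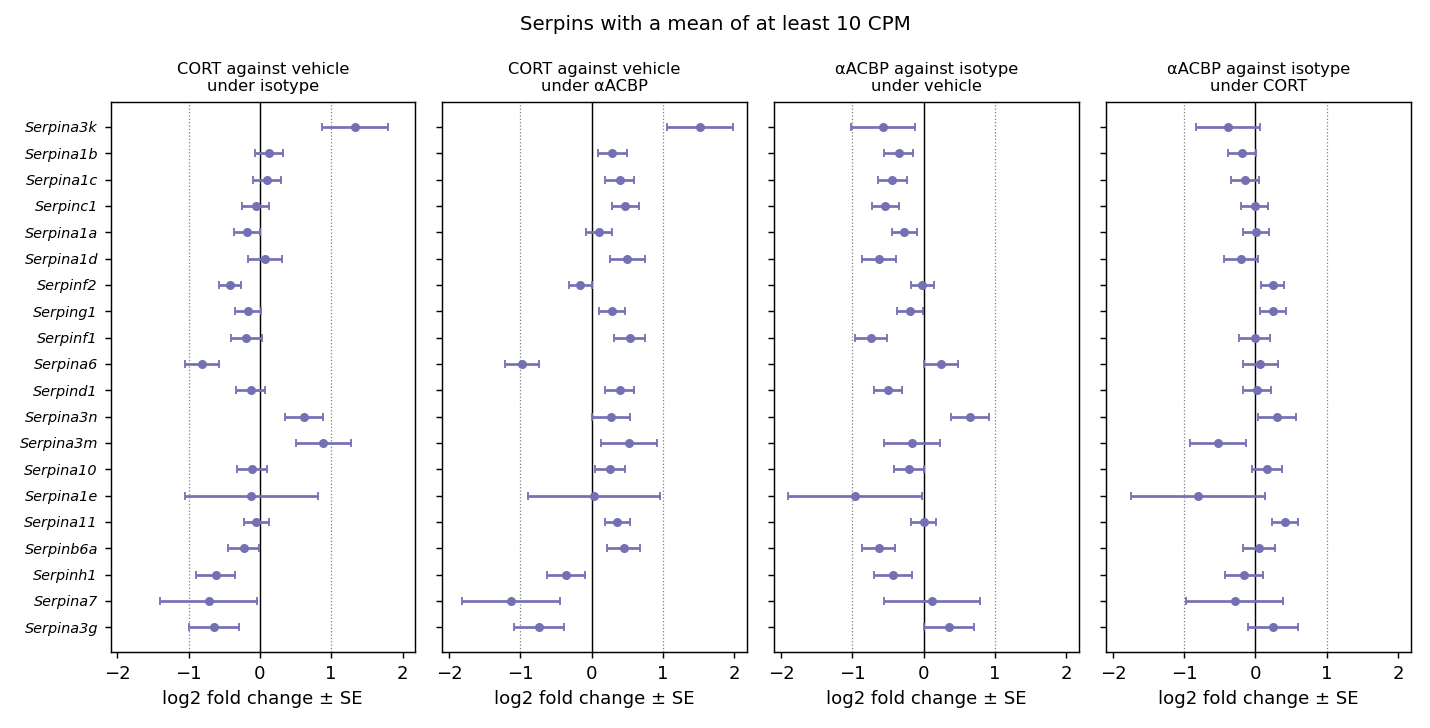
Log2 fold changes ± SE (edgeR) of the serpins with a mean of at least 10 CPM in 4 comparisons, ordered by level; dotted lines mark a change of 1. Serpina3k (1.33 and 1.52) and Serpina6 (−0.81 and −0.98) lie on opposite sides of 0 in both CORT panels, and 16 of the 20 members lie below 0 for αACBP under vehicle.

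The direction over the family was uneven. With αACBP under vehicle 25 of 32 members were below 0, with a median log2 fold change of −0.388 against −0.0194 over all tested genes. With CORT under αACBP 22 of 32 were above 0, with a median of 0.311 against 0.0067. The 9 tested hepatocyte markers had medians of −0.396 for αACBP under vehicle and 0.310 for CORT under αACBP. The 24 tested plasma protease inhibitors outside the family had −0.287 and 0.115. Shifts in these directions were therefore not particular to the serpins, and their cause was not tested. These comparisons share the αACBP + Vehicle livers, whose replicate 5 held the lowest total of serpins, 9711 CPM, against 14244 to 22897 CPM in Isotype + Vehicle. Without that liver, 33 members were tested, and the medians were −0.332 for αACBP under vehicle (25 below 0) and 0.194 for CORT under αACBP (21 above 0). With CORT under isotype 13 of 32 were above 0 and the median was −0.114, against 0.00221. Summed over all members, the group means were 20375 ± 3488, 24605 ± 6695, 15586 ± 3583 and 21953 ± 4428 CPM in the order in which the groups were introduced. Without Serpina3k the sums under isotype were 17555 ± 2475 CPM with vehicle and 17521 ± 3844 CPM with CORT. Under αACBP they were 13688 ± 2881 and 16524.5 ± 2474.7 CPM.

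Across livers most abundant plasma serpins rose and fell together, and Serpina6 and Serpina11 did not. After removal of group means from log2 CPM, Serpinc1 had Pearson r of 0.944 with Serpinf1, 0.90 with Serpind1, 0.869 with Serpina1b and 0.858 with Serping1 over 20 livers. Serpina6 had r between −0.517, with Serpina3k, and 0.197, with Serpinf2, among the other 16 most abundant members. Serpina11 had r between −0.335, with Serpinf2, and 0.326, with Serpina10. The points share the library and its scaling, and 1 liver with low values in many plasma proteins enters all of them, so that these are descriptions.

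**Figure D5:**
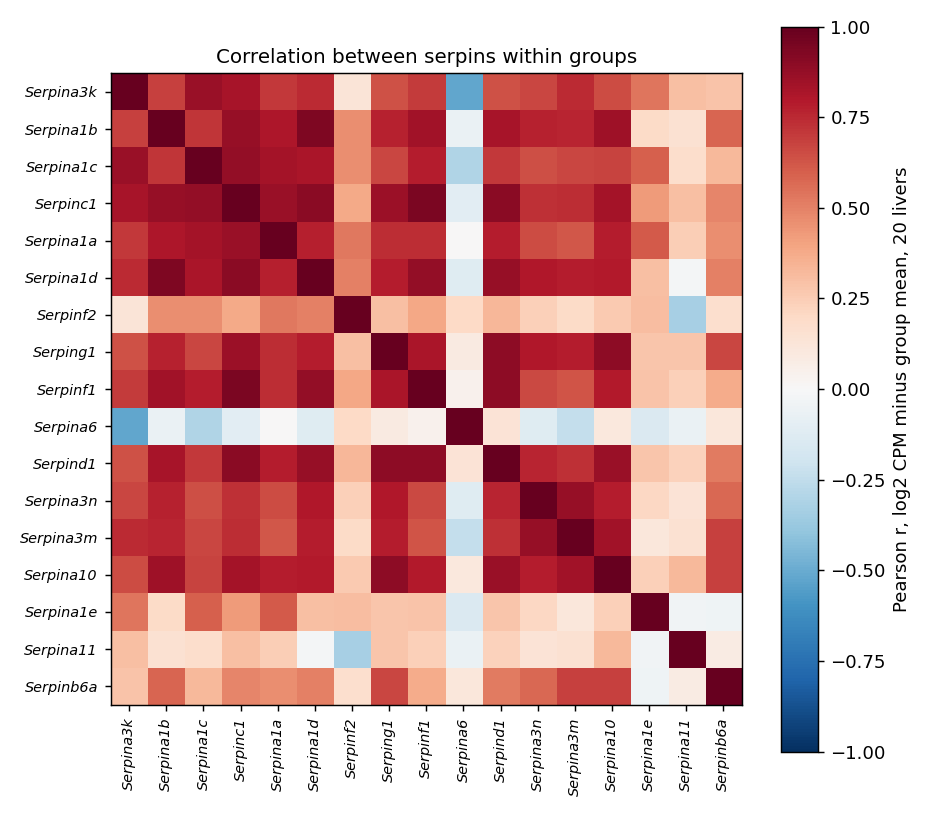
Pearson correlation between the 17 most abundant tested serpins over 20 livers, on log2 CPM after subtraction of each group's mean. Serpinc1, Serpind1, Serpinf1, Serping1, Serpina10, Serpina3k, Serpina3m, Serpina3n and the Serpina1a to Serpina1d copies form a red block. Serpina6 and Serpina11 stay pale with most members, with −0.517 between Serpina6 and Serpina3k. Serpinf2 and Serpina1e are mixed, with 0.527 and 0.611 for Serpina1a but 0.193 and 0.116 for Serpina3m.

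Of all tested genes, the 5 most like Serpina6 by Pearson r of log2 CPM over the 20 livers, group differences included, were Ighd (0.901), Slc22a27 (0.897), Oraov1 (0.888), Palm (0.878) and Gas6 (0.866). Ighd encodes the heavy chain constant region of IgD on B cells, Slc22a27 an organic anion transporter and Gas6 a ligand of the TAM receptors. Within groups the same r values were 0.771, 0.848, 0.717, 0.772 and 0.70. Among the serpins, Serpinf2 (0.583) and Serpina7 (0.57) were the most like Serpina6 and Serpina3k (−0.783) the least.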

How the data were processed

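Total RNA of 20 frozen livers, 5 per group, had been sequenced by the authors as read pairs. Per the study's methods, reads were aligned to GRCm39 with HISAT2, and HTSeq-count gave the number of pairs per gene (union mode, non-unique features kept). The labels' processing notes name mm10 with the same tools, and the annotation release and strand setting are not given in the sources used here. The authors deposited raw counts for 48440 genes, with HTSeq's closing lines: 42.3% to 45.2% of read pairs fell on no gene and 5.92% to 10.6% aligned at more than 1 place. How such pairs entered the gene counts could not be read from the table, and it bears on near-identical copies. These lines were left out of library sizes.

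Group and replicate were taken from the sample titles. The labels do not say whether replicates shared a cage. The study's methods state that mice were housed in groups, and CORT was given in the drinking water. Livers of a group may thus share a cage and its water, which the p-values do not allow for. The p-values measure the spread between these mice. No pair of livers of a group differed by as little as sampling noise (lowest chi-square per degree of freedom 12.2).

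Tests were run with edgeR 4.0.16 (R 4.3.3): TMM scaling, the default filter on low counts (16071 genes kept), 1 robust quasi-likelihood model of 4 groups and Benjamini-Hochberg adjustment over all genes tested. A gene passed both limits at an adjusted p up to 0.05 and a log2 fold change of at least 1 in size. Intervals are 95% intervals from the log2 fold change and its SE. The 2 contrasts, each over both levels of the other treatment were added after the data had been seen. Serpina6 was also compared by two-sided exact permutation of CPM. TPM used the length of the canonical transcript in GENCODE M39 on GRCm39, in which 63 of 64 members and 91.4% of identifiers were found. Reactive loops were located by translating the longest open reading frame. On counts simulated for CORT against vehicle under isotype (15500 genes, 200 changed), edgeR recovered 62.5% of the changed genes, 38% at a log2 change of 1 and 86% at 3, with 1.57% false calls. Recovery meant passing both limits, so at a true log2 change of 1 the fold limit itself lowers the share recovered. On the same counts DESeq2 gave 14% false calls and limma voom 0.943%. Alternatives used DESeq2 1.42.0 and limma 3.58.1 (voom). Correlations used log2(CPM + 1).

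The members, gene lists and tests were chosen with earlier results of these data known. Named members were Serpina6, members past the adjusted p limit, the 10 of highest mean CPM, and Serpina3n, Serpina7, Serpina10, Serping1, Serpina12 and Serpinh1. Further members are named for an unadjusted p under 0.05, their level or their spread, after their values were seen. The values of 1 further member are not reported here, though it is included in the counts and sums over the family.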

Additional observations from a re-analysis of the deposited data

Results flagged for a closer look

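Each named member was screened in each group of 5 livers for a single liver far from the other 4, in 64 combinations of member and group. Chance flags about 1 in 20 groups, and 4 were found. Serpina3k in replicate 4 of Isotype + Vehicle was low, with 1018 CPM against 3068 to 3576 CPM in the others. Serpina10 in replicate 5 of αACBP + Vehicle was low, with 81.5 CPM against 147 to 165 CPM. Serpina7 in replicate 1 of αACBP + Vehicle was high, with 55.8 CPM against 9.10 to 21.4 CPM. Serpina12 in replicate 1 of αACBP + CORT was high, with 24.5 CPM against 4.16 to 8.05 CPM. Replicate 4 of Isotype + Vehicle and replicate 5 of αACBP + Vehicle were also the livers of lowest albumin in their groups, with 49295 and 25084 CPM.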

How the results depend on the processing

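The contrast of CORT over both antibodies kept Serpina6 past the adjusted p limit under 8 other settings (−0.91 to −0.89) and without each of the 20 livers (−1.06 to −0.81), and Serpina3k past both limits under the same settings (1.30 to 1.42). Within antibodies the call on Serpina6 depended on the setting. Under isotype, adjusted p reached 0.05 or less with DESeq2 (−0.81), at least 10 counts in every liver (−0.81) and limma voom (−0.88), and in 2 of 20 fits without 1 liver (−1.15 to −0.64). Under αACBP it did so with DESeq2 (−1.01), at least 10 counts (−1.02), limma voom (−0.95), no filter beyond 1 count (−0.98) and only the groups compared (−0.99), and in 5 of 20 fits without 1 liver (−1.09 to −0.85). αACBP + CORT against Isotype + Vehicle passed with limma voom (−0.80) and only the groups compared (−0.74). Without 1 liver, the αACBP difference under CORT ranged from −0.10 to 0.41, with −0.10 without replicate 2 of Isotype + CORT and 0 without replicate 5 of αACBP + CORT. The interaction ranged from −0.34 to 0.17, with 0.17 without replicate 3 of Isotype + CORT. The Serpina3k interaction ranged from −0.04 to 0.46, with −0.04 without that liver and −0.03 without replicate 5 of αACBP + Vehicle. The causes were not tested.

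Members past both limits numbered 0 in each of the 6 comparisons. With an unadjusted p in place of the adjusted one they numbered 3 for CORT under isotype, αACBP under CORT and CORT under αACBP, and 1 for αACBP under vehicle, αACBP + CORT against Isotype + Vehicle and the interaction. Of all 16071 tested genes that rule called 890, 520, 395, 537, 223 and 791 in the same order. DESeq2 gave 1, 2 and 1 for CORT under isotype, CORT under αACBP and αACBP under vehicle. For CORT under αACBP, at least 10 counts gave 1 (Serpina6) and limma voom 1 (Serpina3k). At any fold, αACBP under vehicle gave 1. Without 1 liver the range was 0 to 3 for CORT under isotype, 0 to 1 for CORT under αACBP (Serpina6 without replicate 5 of αACBP + CORT or replicate 2 of αACBP + Vehicle) and 0 to 1 for αACBP under vehicle (Serpina3c without replicate 4 of Isotype + Vehicle). CORT over both antibodies gave 1, against 2 at any fold, 3 with an unadjusted p, 2 with DESeq2 and 1 to 2 without 1 liver (2 without replicate 3 of Isotype + CORT or replicate 1 of Isotype + Vehicle). αACBP over both drinks gave 1, against 2 with an unadjusted p, 0 with at least 10 counts, which leaves Serpina3c untested, 0 with limma voom and 0 to 2 without 1 liver (0 without replicate 1 of Isotype + Vehicle, 2 without replicate 4 of αACBP + Vehicle). With the unadjusted p, the 2 added contrasts called 551 (CORT over both antibodies) and 322 (αACBP over both drinks) of the 16071 genes. Shares of all genes are not given here for DESeq2, limma voom, at least 10 counts or the fits without 1 liver. Of 5448 alternative values of other members, 2.441% changed sign.

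Replicate numbers did not pair the livers: 4 of 30 same-numbered pairs correlated above 0.1 (−0.169 to 0.17). With the replicate number as a block, Serpina6 under isotype was −0.90 (adjusted p = 0.0348), Serpinf1 with αACBP under vehicle was −0.76 (adjusted p = 0.0767), and the counts of members past both limits stayed at 0 in the 6 comparisons. A member below 0.148 to 0.201 CPM, or 3 counts, in a liver could not be told from 0 at this depth.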
